A study of Homo sapiens with 18 samples.

Results

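Chromatin of wild-type A549 cells, an epithelial line from a human lung adenocarcinoma, was profiled by CUT&Tag with an antibody against ARID1A and with an antibody against YTHDF1. In CUT&Tag an antibody bound to chromatin brings in a transposase, which cuts nearby DNA and leaves sequencing adapters. The peak lists compared are 2 replicates per antibody (groups WT_antiARID1A and WT_antiYTHDF1), 4 of the 18 samples of the series, and they were chosen by genotype and antibody. All 4 came from unedited cells with no drug or knockdown named in the labels, grown in RPMI medium with serum. The series also holds IgG samples, YTHDF1-knockout cells and ARID1A-knockdown cells, which bear on how far either set of peaks needs its target protein and were not used here. The labels do not say whether the replicates were separate cultures, so the spread between them may be technical. A549 is a single tumour line.

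ARID1A is a DNA-binding subunit of the BAF form of the SWI/SNF complex, which uses ATP to slide and evict nucleosomes, and in epithelial cells it is known at active promoters and enhancers. YTHDF1 is a YTH-domain protein that binds N6-methyladenosine in RNA and is known mainly from the cytoplasm, where it acts on the translation and turnover of methylated mRNA. The study's title names a nuclear role of YTHDF1 linked to R-loops, which are RNA:DNA hybrids with a displaced DNA strand. The comparison described here asks which parts of the genome the 2 antibodies mark in the same unperturbed cells.

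As a check of the cell type, windows of 1 kb to either side of gene starts were read for marker genes. Peaks of all 4 lists lay at 5 of 6 epithelial genes (KRT7, KRT8, KRT18, KRT19 and CDH1), and EPCAM had peaks with anti-ARID1A only. Of all genes 29.1% had peaks in all 4 lists. Windows of other lineages were not empty: 2 of 6 haematopoietic, 2 of 6 neuronal, 1 of 6 fibroblast and 1 of 6 endothelial genes also had peaks in all 4 lists. A peak at a gene is not read here as a measure of expression, and the part of other cells or of background cutting in these peaks was not tested. The targeted genes themselves had modest peaks. At YTHDF1 the highest peak stood at percentile 53.9 and 63.1 of total signal in the anti-YTHDF1 lists and at 74.4 and 91.0 in the anti-ARID1A lists. At ARID1A it stood at 61.3 in anti-YTHDF1 replicate 1 and at 64.1 and 65.8 in the anti-ARID1A lists, with no peak in anti-YTHDF1 replicate 2. A percentile here is the rank of a peak's total signal within its own list, with 100 the highest.

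Anti-ARID1A gave more peaks, and they were wider. Anti-YTHDF1 replicates 1 and 2 held 57764 and 40562 peaks on chromosomes 1 to 22 and X, and anti-ARID1A replicates 1 and 2 held 92343 and 100729. The anti-YTHDF1 lists covered 89.6 and 49.3 Mb, and the anti-ARID1A lists covered 228 and 266 Mb. Median peak width was 1262 and 1057 bp with anti-YTHDF1 against 1701 and 1754 bp with anti-ARID1A. In each of the 3 measures both anti-ARID1A lists lay above both anti-YTHDF1 lists. The mean was 1.96 times higher for the number of peaks, 3.56 times for covered length and 1.49 times for median width. An exact two-sided permutation test of 2 lists against 2 gave p = 0.33 for each, the smallest p that this test allows with so few lists.

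Broad domains were more frequent in both anti-ARID1A lists. Peaks of 5 kb or more made up 7.87% and 9.08% of the anti-ARID1A lists and 1.75% and 0.431% of the anti-YTHDF1 lists. The widest anti-ARID1A peaks reached 83050 and 131619 bp, and the widest anti-YTHDF1 peaks 37431 and 29931 bp. The gap grew when every list was cut to its 40562 peaks of highest total signal, the length of the shortest list. Median width was then 1452 and 1057 bp with anti-YTHDF1 and 2801 and 3117 bp with anti-ARID1A. The mean of the second pair was 2.36 times that of the first (p = 0.33, the same exact test), and total signal is itself summed over the width of a peak. The difference was also present at the same places: over 12189 merged regions held by all 4 lists, the anti-ARID1A peaks were a median 2.56 times as wide, and they were the wider ones at 96.5% of the regions. From the 10th to the 90th percentile of regions that ratio ran from 1.29 to 5.42.

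**Figure D1:**
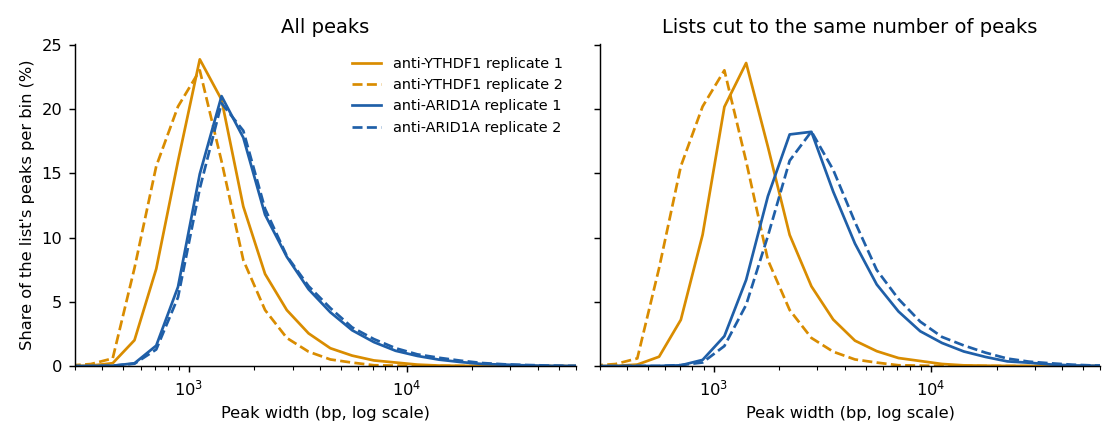
Distribution of peak width (x axis, bp, log scale) as the share of each list's peaks per bin (y axis, %), for all peaks (left) and for lists cut to 40562 peaks (right). One line is 1 list; the blue anti-ARID1A lines lie to the right of the orange anti-YTHDF1 lines in both panels, with medians of 1701 and 1754 bp against 1262 and 1057 bp for all peaks.

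The height of the peaks moved with their width. All highest signals in a list were whole multiples of 1 step, which differs between libraries, so heights were counted in steps of the own library. The median peak reached 4 steps in both anti-YTHDF1 lists and 7 in both anti-ARID1A lists. A height of 3 steps or fewer was found for 25.3% and 36.4% of anti-YTHDF1 peaks and for 2.71% and 1.73% of anti-ARID1A peaks. Sequencing depth is unknown, and the part of depth in the difference of number and width was not tested.

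Most anti-YTHDF1 peaks lay where anti-ARID1A peaks were called, and a smaller share of anti-ARID1A peaks lay on anti-YTHDF1 peaks. Of anti-YTHDF1 replicate 1 peaks, 71.0% and 76.1% were overlapped by at least 1 bp by a peak of anti-ARID1A replicate 1 and 2, and of replicate 2 peaks 69.1% and 73.0%. In the other direction 20.6% to 33.9% of anti-ARID1A peaks were overlapped by an anti-YTHDF1 list. Many anti-YTHDF1 peaks, 41.7% to 54.1%, lay wholly inside an anti-ARID1A peak. The replicates of anti-ARID1A shared 76.3% and 65.8% of their peaks with one another. The replicates of anti-YTHDF1 shared 33.1% and 50.9%, so with all peaks each anti-YTHDF1 list had a larger share of its peaks in either anti-ARID1A list than in its own replicate. With lists cut to an equal covered length this order reversed: 58.1% of anti-YTHDF1 replicate 1 peaks lay in replicate 2 against 36.5% and 35.4% in the anti-ARID1A lists, and 36.2% of replicate 2 peaks lay in replicate 1 against 25.1% and 24.6%.

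The direction of this imbalance depended on how the lists were cut. With lists cut to the same number of peaks, 58.0% to 71.2% of anti-YTHDF1 peaks lay in an anti-ARID1A list, against 38.9% to 47.0% the other way. With lists cut by total signal to the same covered length of 49.3 Mb, which leaves 21337 and 40562 anti-YTHDF1 peaks but 4865 and 3473 anti-ARID1A peaks, the order turned round. Then 24.6% to 36.5% of anti-YTHDF1 peaks were overlapped by an anti-ARID1A list, and 81.0% to 91.3% of anti-ARID1A peaks by an anti-YTHDF1 list. With each peak replaced by a 500 bp window at its summit, the place of highest signal, 28.8% to 32.1% of anti-YTHDF1 summits met an anti-ARID1A summit and 11.6% to 20.1% the other way. Of the anti-ARID1A summits of one replicate, 48.2% and 44.2% met one of the other, and of the anti-YTHDF1 summits 19.8% and 28.2%. In each of the 4 settings anti-ARID1A replicates overlapped one another more than anti-YTHDF1 replicates did.

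**Figure D2:**
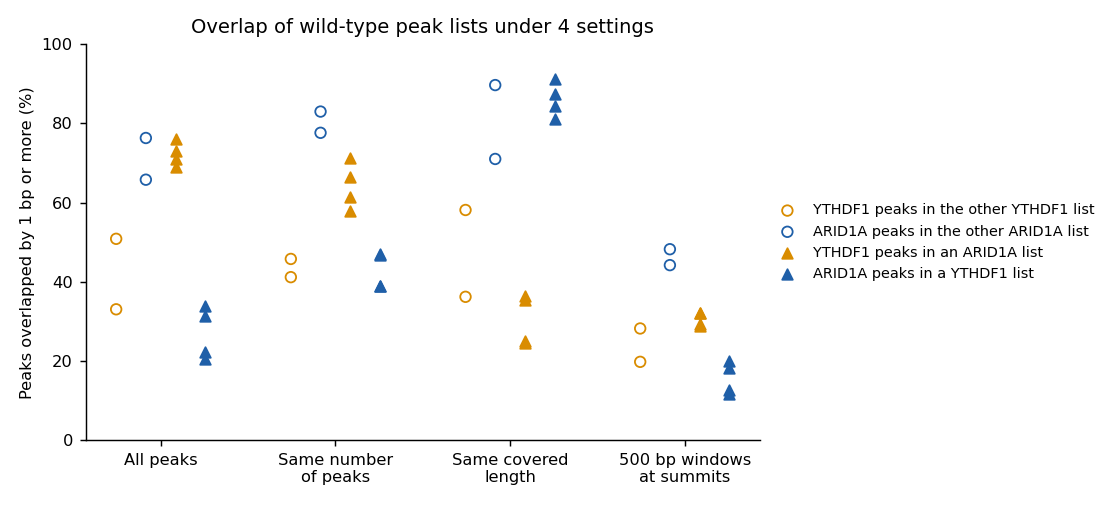
Share of peaks overlapped by another list by 1 bp or more (y axis, %) for 4 ways of setting up the lists (x axis). Open circles compare replicates of an antibody, filled triangles compare antibodies, and orange or blue names the antibody whose peaks are counted; the triangles change places between the first setting (69.1% to 76.1% orange, 20.6% to 33.9% blue) and equal covered length (24.6% to 36.5% orange, 81.0% to 91.3% blue).

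Strong peaks were shared far more than weak ones. Peaks of a list were divided into 10 deciles of total signal. In the top decile of the anti-YTHDF1 lists 97.8% to 99.6% of peaks were overlapped by an anti-ARID1A list, and in the lowest decile 48.0% to 57.8%. The other anti-YTHDF1 list overlapped 87.4% and 95.6% of the top decile and 12.7% and 30.2% of the lowest. In the top decile of the anti-ARID1A lists 72.9% to 87.6% of peaks were overlapped by an anti-YTHDF1 list, and in the lowest decile 5.33% to 12%. Width moves with this order: median width was 954 and 848 bp in the lowest decile of the anti-YTHDF1 lists and 3265 and 2271 bp in the top decile, and 1168 and 1194 against 6133 and 6880 bp with anti-ARID1A. The part of width in the trend was not tested.

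**Figure D3:**
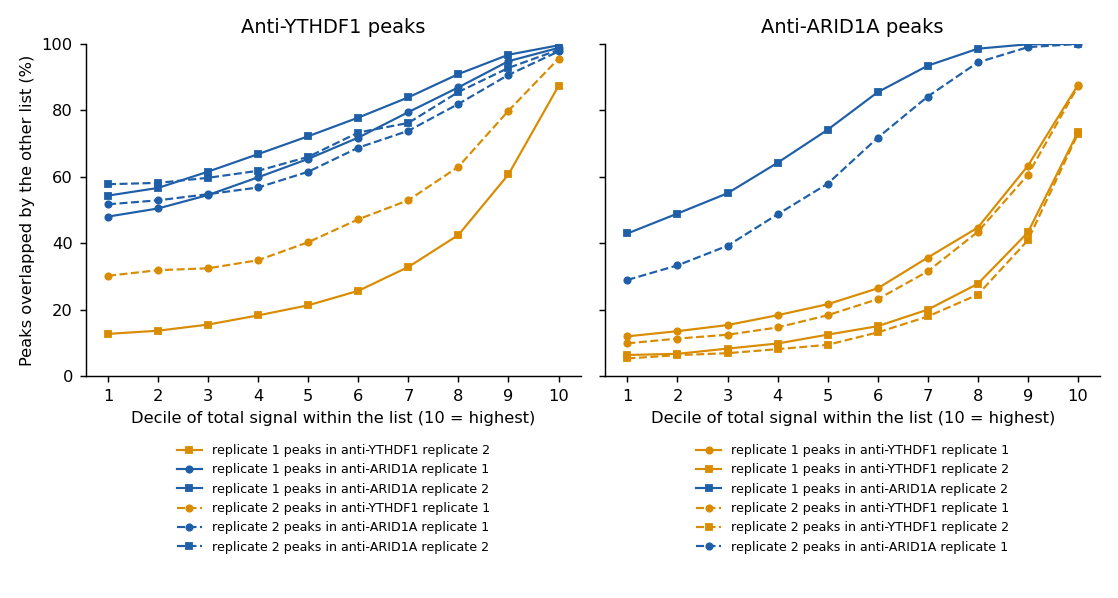
Share of peaks overlapped by another list (y axis, %) by class of total signal within the list (x axis, 10 is the highest decile), for anti-YTHDF1 peaks (left) and anti-ARID1A peaks (right). Line colour and marker give the overlapping list and line style the replicate counted; every line rises with signal, to between 72.9% and 100% in the top decile.

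Ranks of total signal correlated between the antibodies with coefficients near that between the 2 anti-YTHDF1 lists, and below that between the 2 anti-ARID1A lists. Over pairs of overlapping peaks, Spearman's rho was 0.44 between the anti-YTHDF1 replicates (17897 pairs) and 0.76 between the anti-ARID1A replicates (59915 pairs). Between antibodies rho was 0.47 and 0.49 for anti-YTHDF1 replicate 1 (29938 and 30374 pairs) and 0.40 and 0.42 for replicate 2 (20070 and 20246 pairs). These correlations are across peaks, which are not independent replicates, and total signal shares peak width as a factor. With ranks by total signal divided by width, rho fell to 0.36 between anti-YTHDF1 replicates and to a mean of 0.34 between antibodies. With ranks by highest signal the anti-YTHDF1 replicates stood above every pair between antibodies, at 0.50 against 0.40 to 0.49. At 5630 genes with peaks in all 4 lists, the rho of the highest percentile per gene was 0.56 between anti-YTHDF1 replicates, 0.88 between anti-ARID1A replicates and 0.50 to 0.63 between antibodies. Among the 1000 highest peaks, 57.5% of those of anti-YTHDF1 replicate 1 overlapped a top 1000 peak of replicate 2, and 53.8% and 60.0% overlapped one of the anti-ARID1A lists. For anti-YTHDF1 replicate 2 the shares were 64.0% in its replicate and 52.2% and 55.9% in the anti-ARID1A lists. The anti-ARID1A lists shared 83.0% and 77.6% with one another, and 37.2% to 40.6% of their top 1000 overlapped a top 1000 anti-YTHDF1 peak.

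Summits of overlapping peaks lay closest between the anti-ARID1A replicates. The median distance was 184 bp there, 361 bp between the anti-YTHDF1 replicates and 402, 426, 448 and 478 bp for the 4 pairs between antibodies. Within 100 bp lay 38.2% of summit pairs of the anti-ARID1A replicates, 19.3% of the anti-YTHDF1 replicates and 18.3% to 20.8% between antibodies. Within 500 bp the shares were 69.3% for the anti-ARID1A replicates, 60.6% for the anti-YTHDF1 replicates and 51.2% to 55.6% between antibodies. By the share within 100 bp the anti-YTHDF1 replicates lay inside the range of the pairs between antibodies. By the share within 500 bp they lay above that range. A distance can be longer in a wider peak, and the part of width was not tested.

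With both antibodies the 250 bp before gene starts held more summits than any other 250 bp stretch within 2 kb, and anti-ARID1A summits were gathered more tightly. Gene starts were those of 15453 protein-coding genes with a listed start, none on chromosome 8. Within 2 kb of one lay 14.6% and 16.1% of anti-YTHDF1 summits and 12.5% and 11.5% of anti-ARID1A summits. Of these, 53.6% and 51.4% lay upstream with anti-YTHDF1 and 61.2% and 60.7% with anti-ARID1A. Among these, 39.3% of the summits of each anti-ARID1A list fell in the 250 bp before the start, against 26.7% and 23.4% with anti-YTHDF1. The share within 250 bp to either side was 57.3% and 57.0% with anti-ARID1A and 44.2% and 40.5% with anti-YTHDF1, so the groups did not overlap. In lists cut to the same number of peaks the 250 bp before the start held 44.4% and 44.8% against 28.4% and 23.4%. The cut raised the share of all summits within 2 kb of a start to 20.4% and 20.0% with anti-ARID1A and to 16.8% with anti-YTHDF1 replicate 1.

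**Figure D4:**
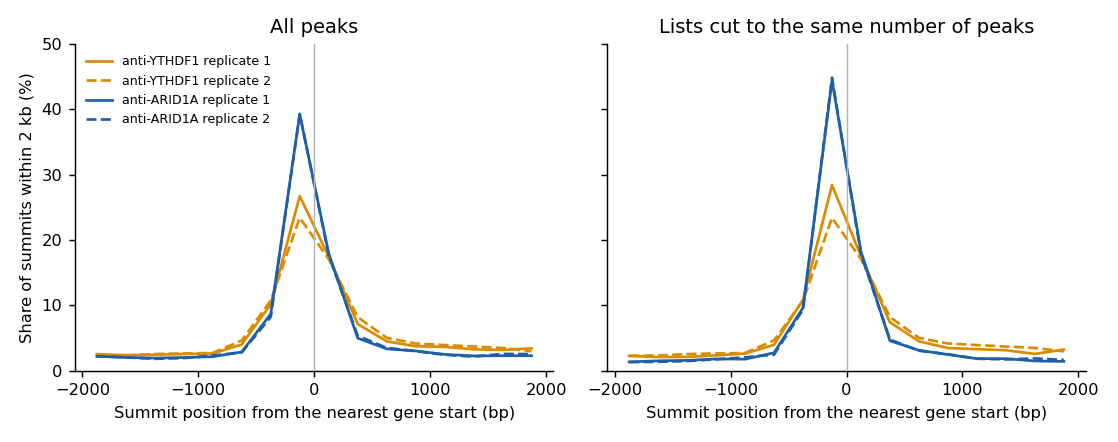
Position of summits relative to the nearest listed gene start (x axis, bp, negative is upstream) as the share of the summits within 2 kb, in bins of 250 bp (y axis, %), for all peaks (left) and lists cut to the same number of peaks (right). One line is 1 list; all 4 peak in the bin just before the start, at 39.3% for both anti-ARID1A lists and 26.7% and 23.4% for the anti-YTHDF1 lists on the left.

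Peaks of the 4 lists merged into 130870 regions. All 4 lists held 12189 of them (9.31%). Both anti-ARID1A lists and neither anti-YTHDF1 list held 28593 (21.8%), and 585 regions (0.447%) showed the opposite pattern. The first class lay in the middle of the anti-ARID1A lists, at median percentiles of 49.8 and 53.7, and the second low in the anti-YTHDF1 lists, at 39.3 and 42.9. A listed gene start lay within 1 kb of 38.2% of the regions held by all, against 9.86% over all 130870 regions. The share was 10.2% for the anti-ARID1A regions, near that of all regions, and 1.61% for the anti-YTHDF1 regions. Median width was 6288 bp for regions held by all, 2238 bp for anti-ARID1A regions and 1550 bp for anti-YTHDF1 regions. The part of width in these shares was not tested. The counts and even their order depend on the lists. They were 9733 (15%) and 1184 (1.82%) of 65045 regions with equal numbers of peaks. With equal covered length they were 127 (0.326%) and 5384 (13.8%) of 38937. With 500 bp windows at summits they were 28247 (14%) and 3767 (1.87%) of 201196. Leaving out an anti-ARID1A list, so that 1 list decides, raised the anti-ARID1A regions to 62681 (without replicate 1) and 54961 (without replicate 2). The anti-YTHDF1 regions came to 9288 and 11048 without anti-YTHDF1 replicate 1 and 2, and to 900 and 1241 without anti-ARID1A replicate 1 and 2. Regions were counted and not tested one by one.

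The strongest single-antibody regions are few. A region or gene is called strong where both lists of an antibody hold a peak at or above the 90th percentile. Strong with anti-ARID1A were 6736 regions, and 439 of them had no anti-YTHDF1 peak; strong with anti-YTHDF1 were 2256, and 2 of them had no anti-ARID1A peak. The anti-ARID1A region of highest mean percentile, chr21:34806607-34814482 (GRCh38), lay inside RUNX1, which encodes a transcription factor of the RUNT family. Its percentiles were 98.6 and 98.3, its height 83 and 84 steps, and its summits in the 2 lists were at positions 34807768 and 34807755. The nearest anti-YTHDF1 peaks were 4705 and 4992 bp away. The next were chr17:59750541-59759475 inside VMP1, an autophagy gene, at 98.2 and 98.1, and chr9:19180236-19191295, 39217 bp from DENND4C, at 98.3 and 98. Of the anti-YTHDF1 regions, chr5:1022907-1026349 at NKD2, a Wnt pathway gene, stood at 93.5 and 98.9. Its heights were 7 and 12 steps, and the nearest anti-ARID1A peaks were 3879 and 2866 bp away. By mean percentile a region inside SNTG2 (chr2:1106460-1109135, 85.0 and 97.7) and one inside TRAPPC9 (chr8:140194379-140197580, 86.5 and 95.4) followed, at heights of 6 to 7 steps. Both fell below the 90th percentile in anti-YTHDF1 replicate 1, so they do not count as strong. The other strong anti-YTHDF1 region is not among those named.

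At genes the picture was one-sided in whole peaks. A gene was held by a list if a peak overlapped the window of 1 kb around a listed start, or around both annotated ends where no start was listed. Of 19335 protein-coding genes, 5630 (29.1%) were held by all 4 lists, 3426 (17.7%) by both anti-ARID1A lists and neither anti-YTHDF1 list, 21 (0.109%) by both anti-YTHDF1 lists and neither anti-ARID1A list, and 4029 (20.8%) by none. At any strength the anti-YTHDF1 lists held 48.0% and 36.4% of all genes, and the anti-ARID1A lists 72.5% and 74.4%. The counts that follow are to be read beside these shares. Strong anti-YTHDF1 peaks lay at 1233 genes, and both anti-ARID1A lists held 1232 of them, at median percentiles of 98.5 and 98.8. Strong anti-ARID1A peaks lay at 4296 genes, of which both anti-YTHDF1 lists held 3305, 1 of the 2 held 826, and neither held 165 (0.853% of all genes). With equal numbers of peaks this class held 72 genes (0.372%), and with equal covered length 10 (0.0517%). Percentiles were taken anew within each cut list, so fewer anti-ARID1A peaks count as strong there than with all peaks. All 165 were still held by anti-ARID1A only after the cut to equal numbers. With equal numbers of peaks all 4 lists held 26.3% of genes, anti-ARID1A only 11.4%, anti-YTHDF1 only 0.409% and no list 31.8%. Leaving out 1 list drops a condition, so the count can only rise. The class then held 852 and 304 genes without anti-YTHDF1 replicate 1 and 2, and 338 and 233 without anti-ARID1A replicate 1 and 2.

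Genes with strong peaks of anti-YTHDF1 only came to 1 (0.00517%), TAF11L8, a member of a multicopy family whose reads cannot be placed with certainty. Its peaks stood at percentiles 98.6 and 98.2, with heights of 10 and 7 steps, and they overlapped anti-ARID1A peaks outside the gene window. With equal covered length, where percentiles were taken anew in the cut lists, the count was 42 (0.217%), and with summit windows 102. The 21 genes held by both anti-YTHDF1 lists at any strength include other multicopy genes (USP17L17, USP17L18, USP17L25, FAM90A5, FAM90A8, MBD3L4, TBC1D3I and the C4A and C4B pair, which encodes complement C4). Single-copy examples were VTCN1, a checkpoint ligand, at percentiles 10.2 and 54.4, and FAM20C, a secretory pathway kinase, at 51.0 and 56.0.

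At most of the 165 genes with strong anti-ARID1A peaks only, the anti-ARID1A peak reached beyond the gene window and met an anti-YTHDF1 peak there. The 12 of highest mean percentile were DENND6B, S100A5, FIBCD1, REXO1, SLC5A11, TRNP1, TSKS, DVL1, HMGA1, CYTH4, EPOR and OTOP3. Their anti-ARID1A peaks were 6432 to 38462 bp wide. At all 12 both summits lay more than 1 kb from the nearest start, at 1637 to 21289 bp. SLC5A11 and CYTH4 have no listed start, so their distances run to the nearer annotated end. At all 12 the peak itself overlapped an anti-YTHDF1 peak outside the window. At HMGA1, which encodes an architectural chromatin protein (chr6:34236873-34246231), percentiles were 99.3 and 99.2 with anti-ARID1A, and the nearest anti-YTHDF1 peaks were 1411 and 1662 bp outside the window. At DVL1, a Wnt signal transducer (chr1:1335278-1349418), they were 99.5 and 99.5, with anti-YTHDF1 peaks 15 and 663 bp outside the window. At EPOR, the erythropoietin receptor, they were 99.6 and 98.2, with anti-YTHDF1 peaks at 1008 and 897 bp. Over all 165 genes, 122 had such an overlap, 110 had an anti-YTHDF1 peak within 2 kb of the window, and 55 still had none with a window of 3 kb. The median width of their peaks was 6436 and 7291 bp. A start was listed for 122 of the 165, and at the others a peak may lie at the end where the gene stops.

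At 43 genes, chosen after the values were seen, the strong anti-ARID1A peaks overlapped no anti-YTHDF1 peak at all. A start was listed for 30 of them. For the others distances run to the nearer annotated end, which may be where the gene stops. Both summits lay within 1 kb of such a start or end at 28 genes, and peaks were 1961 to 8955 bp wide. The nearest anti-YTHDF1 peak was a median 5492 bp outside the window and more than 10 kb away at 18 genes. METTL21A, a lysine methyltransferase of HSP70 chaperones, stood at percentiles 96.5 and 94.0 with heights of 26 and 25 steps, and its nearest anti-YTHDF1 peaks were 5218 and 5588 bp away. STOM, the membrane protein stomatin, stood at 95.1 and 95 with anti-YTHDF1 peaks 36668 and 46140 bp away. ROCK2, a kinase downstream of RhoA, stood at 95.2 and 94.2, and SH3RF2, a ubiquitin ligase, at 92.3 and 95.5. CALM2, one of the calmodulin genes, stood at 94.1 and 95.1, NEK2, a centrosomal kinase, at 92.5 and 94.5, and MALT1, a paracaspase of NF-kB signalling, at 92.8 and 92.6. The heights at these 7 genes were 22 to 40 steps, at or above the 90th percentile of height in each anti-ARID1A list (22 and 23 steps). The 7 were not set by a rule, and not all of the 43 reached these heights. OLFM2, of highest mean percentile, reached 28 and 20 steps, PKDCC 12 and 12, KISS1R 11 and 17 and CDK6 19 and 17.

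Promoters are printed for the 5 of these genes with the highest mean percentile and both summits within 500 bp of a start, since here anti-ARID1A had a strong summit at the start and anti-YTHDF1 no peak. SIN3A follows for contrast, as the gene of highest mean percentile over the 4 lists whose highest peaks had all 4 summits within 500 bp of 1 start. The next gene by that measure, BOLA2, has near-identical copies and is not printed. Sequences are RefSeq GRCh38.p14, 5′ to 3′ on the gene's strand, from 250 bases before the start to 50 after. Capitals mark matches on either strand to any of 10 motifs, and matches can overlap. The SP/KLF GC box was searched as GGGCGG. The CCAAT box was searched as CCAAT. The ETS letters were CCGGAAGT. The AP-1 letters were TGANTCA. The cAMP response element was TGACGTCA. The TATA box was TATAAA. E2F was searched as TTCCCGC. TEAD was searched as GGAATG. NRF1 and YY1 motifs were searched too, and none of the promoters printed holds a match to either.
METTL21A: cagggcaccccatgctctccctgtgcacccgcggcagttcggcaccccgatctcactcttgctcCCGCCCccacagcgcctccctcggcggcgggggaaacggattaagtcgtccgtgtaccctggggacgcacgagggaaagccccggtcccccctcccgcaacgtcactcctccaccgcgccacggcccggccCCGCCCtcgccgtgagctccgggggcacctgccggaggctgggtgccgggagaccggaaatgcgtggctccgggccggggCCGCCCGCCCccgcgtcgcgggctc
STOM: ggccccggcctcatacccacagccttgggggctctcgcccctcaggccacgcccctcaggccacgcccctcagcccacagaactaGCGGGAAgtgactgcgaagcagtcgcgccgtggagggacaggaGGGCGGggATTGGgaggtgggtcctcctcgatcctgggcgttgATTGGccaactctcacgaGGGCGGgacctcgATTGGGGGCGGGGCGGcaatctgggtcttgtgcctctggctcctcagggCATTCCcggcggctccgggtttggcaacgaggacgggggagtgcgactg
ROCK2: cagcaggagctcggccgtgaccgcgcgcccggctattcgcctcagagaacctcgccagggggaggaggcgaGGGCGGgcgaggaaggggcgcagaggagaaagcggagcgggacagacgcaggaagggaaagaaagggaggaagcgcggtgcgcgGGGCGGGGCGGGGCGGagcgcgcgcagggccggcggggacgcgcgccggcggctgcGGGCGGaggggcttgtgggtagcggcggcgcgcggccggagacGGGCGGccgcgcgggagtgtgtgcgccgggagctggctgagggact
TM4SF19: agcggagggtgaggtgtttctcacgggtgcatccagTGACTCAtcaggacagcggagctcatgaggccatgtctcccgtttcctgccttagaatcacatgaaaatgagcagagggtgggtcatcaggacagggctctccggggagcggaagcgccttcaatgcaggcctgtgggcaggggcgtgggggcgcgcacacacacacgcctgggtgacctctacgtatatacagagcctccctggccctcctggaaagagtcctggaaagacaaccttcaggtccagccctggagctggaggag
SH3RF2: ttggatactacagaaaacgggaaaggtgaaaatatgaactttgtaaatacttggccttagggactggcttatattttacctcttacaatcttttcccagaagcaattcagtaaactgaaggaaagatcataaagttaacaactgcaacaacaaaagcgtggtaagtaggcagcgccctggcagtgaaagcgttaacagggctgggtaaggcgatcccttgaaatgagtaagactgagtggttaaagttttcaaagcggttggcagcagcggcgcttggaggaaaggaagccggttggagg
SIN3A: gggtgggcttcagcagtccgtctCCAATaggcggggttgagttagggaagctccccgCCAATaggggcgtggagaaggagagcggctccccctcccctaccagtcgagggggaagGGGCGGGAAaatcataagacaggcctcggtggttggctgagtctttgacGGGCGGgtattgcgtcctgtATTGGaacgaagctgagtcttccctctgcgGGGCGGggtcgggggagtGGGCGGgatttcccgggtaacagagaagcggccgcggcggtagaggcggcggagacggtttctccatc

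The METTL21A promoter (chr2:207625345-207625644, minus strand) has 4 GC boxes and 75.3% G and C, and the anti-ARID1A summits lay at -129 and -78 from its start. STOM (chr9:121370201-121370500, minus strand) has 4 GC boxes, 3 CCAAT boxes, 1 E2F and 1 TEAD match, with summits at 139 and 43. ROCK2 (chr2:11344587-11344886, minus strand) has 6 GC boxes and 47 CpG dinucleotides, with summits at -168 and -149. TM4SF19, a tetraspanin-like membrane protein (chr3:196338339-196338638, minus strand), has no GC box and 1 AP-1 match, with summits at -130 and -118. SH3RF2 (chr5:145936328-145936627, plus strand) has none of the 10 motifs and 44.3% G and C, with summits at -44 and 88. The promoter shared by both antibodies lay within the same range of composition, at 64% G and C. SIN3A, a scaffold of histone deacetylase complexes (chr15:75451641-75451940, minus strand), has 4 GC boxes, 3 CCAAT boxes and 1 E2F match, with percentiles of 99.9 and 99.9 with anti-YTHDF1 and 99.8 and 99.8 with anti-ARID1A. Its summits lay at -344 and -314 with anti-YTHDF1 and at -312 and -350 with anti-ARID1A. All 4 lay upstream of the printed bases, so its motifs and composition are not those at a summit. The STOM summit at 139 and the SH3RF2 summit at 88 also lay outside the printed bases.

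Over all 15453 listed promoters, 1 a gene, those of genes with no peak had the lowest G and C content. Median G and C content was 66.3% at 4367 promoters of genes held by all 4 lists, 63.7% at 2849 held by anti-ARID1A only and 49.0% at 3258 held by no list, against 62.7% over all. Median CpG counts were 27, 24 and 5. A GC box was found in 73.3%, 62.8% and 27.1% of these classes and in 57.9% of all promoters. AP-1 letters were found in 4.69%, 6% and 9.02%, against 5.97% of all, and TATAAA in 5.27%, 6.60% and 22%, against 9.90%. At the 122 strong anti-ARID1A only genes with a listed start the GC box share was 65.6% and the AP-1 share 8.20%. These shares are descriptions of letters in a 300 base window.

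Seen by summits rather than by whole peaks, genes of one antibody only were found on both sides. With 500 bp windows at summits, 102 genes (0.528%) had strong anti-YTHDF1 summits only and 76 (0.393%) strong anti-ARID1A summits only. At all 102 both anti-ARID1A lists had a peak in the gene window, strong in both at 100 of them, with median percentiles of 99.7 and 99.8. Those anti-ARID1A peaks were a median 25236 and 30486 bp wide. Their summits were a median 6682 and 6900 bp from the gene start, against 373 and 404 bp for the anti-YTHDF1 summits. Where no start was listed, these distances run to the nearer annotated end. The selection fixes which antibody has the nearer summit, so these distances are a description. At the 76 genes anti-ARID1A summits were a median 145.5 and 137 bp from the start. Unlike at the 102, most had no peak of the other antibody: anti-YTHDF1 had none in the window at 53 genes. It had one in 1 list at 20 genes and in both lists at 3. Where there was one, its summit was a median 1665 and 1455 bp away, so these medians rest on few genes. At RARA, a retinoic acid receptor gene (chr17:40309180-40357643), anti-YTHDF1 summits lay 67 and 129 bp from a start and anti-ARID1A summits 3575 and 3550 bp, with all 4 percentiles at 99.6 or above. At TSPAN4, a tetraspanin gene (chr11:842852-867111), the distances were 7 and 90 bp against 7830 and 7878 bp. At EPS8L2, a regulator of actin (chr11:706231-727727), they were 39 and 948 bp against 10897 and 10920 bp. At IRF3, a transcription factor of the interferon response (chr19:49659572-49665857), they were 386 and 23 bp from an annotated end against 11107 and 11099 bp. These 4 genes were picked after their values were seen. A single summit is kept for a domain of any width. Further maxima within a domain are not in the lists.

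**Figure D5:**
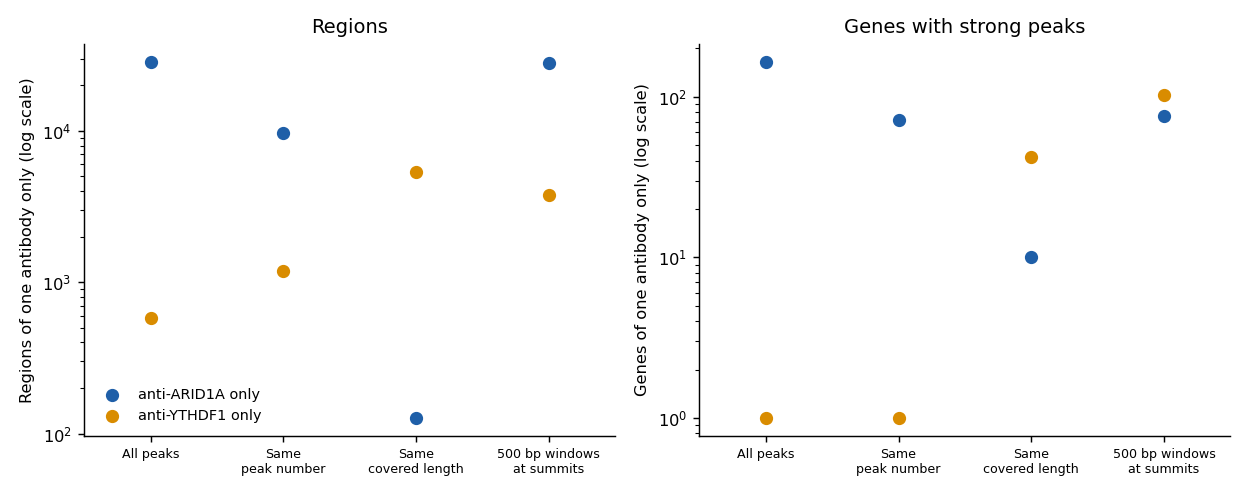
Number of regions (left) and of genes with strong peaks (right) held by both lists of one antibody and neither of the other (y axis, log scale) under 4 settings (x axis), anti-ARID1A in blue and anti-YTHDF1 in orange. Anti-ARID1A counts exceed anti-YTHDF1 counts with all peaks (28593 against 585 regions, 165 against 1 gene), and the order turns with equal covered length (127 against 5384, 10 against 42). In cut lists percentiles were taken anew, so fewer anti-ARID1A peaks count as strong there.

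Among the 373 members of 22 gene lists on chromatin, RNA modification, immunity, stress, growth and lineage, 146 (39.1%) were held by all 4 lists, 60 (16.1%) by anti-ARID1A only, 1 (VTCN1) by anti-YTHDF1 only and 40 by none. Without anti-YTHDF1 replicate 1, which drops a condition and can only raise the count, the 60 became 133. The shares over all 19335 genes were 29.1%, 17.7%, 0.109% and 20.8%. The p53 targets were held by all 4 lists most often among lists of over 10 members: 14 of 19, with none held by anti-ARID1A only. MDM2, the ubiquitin ligase of p53, stood at 75.6 and 83.9 with anti-YTHDF1 and at 88.6 and 89.4 with anti-ARID1A. CDKN1A, the p21 inhibitor of cyclin-dependent kinases, stood at 6.1 and 81.2 with anti-YTHDF1, far apart between the replicates, and at 95.5 and 97.2 with anti-ARID1A.

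Of 20 NRF2 targets, antioxidant and metabolic genes, all 4 lists held 13 (65%) and anti-ARID1A only 5 (25%), beside 29.1% and 17.7% of all genes. NQO1, a quinone reductase, stood at 86.2 and 89.4 against 95.2 and 96.6, and TXNRD1, thioredoxin reductase, at 83.4 and 92.8 against 99.6 and 99.6. SLC7A11, the cystine transporter, had anti-ARID1A peaks only, at 78.7 and 68.4, as had GCLM, ME1, AKR1C1 and AKR1C3, of which the last pair has near-identical neighbours. The AP-1 and ATF family had 11 of 19 members in all 4 lists and 3 with anti-ARID1A only. FOSL2 stood at 97.8 and 90.3 with anti-YTHDF1 and at 98.7 and 98.7 with anti-ARID1A. JUN, which pairs with FOS proteins in AP-1, had no anti-YTHDF1 peak and stood at 81.9 and 85.6 with anti-ARID1A, and ATF3 likewise at 88.9 and 89.8.

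In the genes of the 2 proteins' own pathways the shares are to be read beside the 29.1% of all genes held by all 4 lists and the 17.7% held by anti-ARID1A only. Of 22 m6A genes 11 were held by all 4 lists and 4 (YTHDC1, YTHDC2, METTL14 and ZC3H13) by anti-ARID1A only. METTL3, the catalytic subunit of the m6A writer, stood at 43.6 and 2.9 with anti-YTHDF1 and at 70.0 and 54.5 with anti-ARID1A. Its partner METTL14 had no anti-YTHDF1 peak and stood at 45.9 and 71.9 with anti-ARID1A. Of 28 SWI/SNF subunits all 4 lists held 9 (32.1%) and anti-ARID1A only 4 (14.3%), both near those shares (SMARCB1, SMARCC2, SMARCE1 and ACTL6B). SMARCC2, a core scaffold subunit, was a strong case at 94.6 and 98, but its peaks also overlapped an anti-YTHDF1 peak outside the window. It has no listed start, and these peaks met only the window around the annotated end at position 56162359. Whether that end is the start was not read. Of 26 R-loop processing genes all 4 lists held 9, among them TOP1, DDX5 and XRN2, and anti-ARID1A only 6, among them RNASEH2A, a subunit of an enzyme that removes RNA from hybrids, at 63.9 and 60.9.

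Immune genes were held in varying shares. All 4 lists held 8 of 19 nucleic acid sensing genes, 6 of 25 interferon-stimulated genes, 4 of 18 antigen presentation genes, 3 of 13 checkpoint ligands and 4 of 23 cytokines and chemokines, beside 29.1% of all genes. Anti-ARID1A only held 2, 4, 2, 4 and 4 of them in the same order, beside 17.7% of all genes. Anti-ARID1A only peaks lay at CD274, which encodes PD-L1, at 69.2 and 41.8, at B2M, the light chain of MHC class I, at 45.1 and 45.6, at IFIT1 at 70.3 and 68.5, and at IL6 at 80.8 and 69.4. Of 15 YAP and TEAD pathway genes 5 were held by all 4 lists, beside 29.1% of all genes, among them TEAD2 and AXL. Another 5 were held by anti-ARID1A only, beside 17.7% of all genes, among them YAP1 at 92.8 and 89.8 and the target CCN1 at 87.2 and 90.7. Strong anti-ARID1A peaks with no anti-YTHDF1 peak in the window were found for 9 members of any list: SFTPC, MCM5, PDGFRB, SMARCC2, ZNF579, TEAD3, ZNF281, CDK6 and ZNF205. At ZNF281 and CDK6 alone among the 9 the peaks overlapped no anti-YTHDF1 peak. No start was listed for SFTPC, MCM5 and SMARCC2, so their windows lay at both annotated ends. CDK6, a G1 cyclin-dependent kinase, stood at 90.6 and 92.3 with summits 28 and 6 bp from its start and the nearest anti-YTHDF1 peaks 29377 and 47141 bp outside the window.

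The large gene families ranged widely. Of 390 olfactory receptor genes 364 had no peak in any list, and 3 were held by all 4. All 4 lists held 112 of 509 zinc finger genes (22%), 9 of 69 replication-dependent histone genes (13.0%), 6 of 39 HOX genes (15.4%) and 31 of 84 cytosolic ribosomal protein genes (36.9%), against 29.1% of all genes. Anti-ARID1A only peaks lay at 84, 17, 5 and 18 of them in the same order (16.5%, 24.6%, 12.8% and 21.4%), beside 17.7% of all genes. Histone genes stand close together and have near-identical copies, so their peaks can be shared and their reads misplaced. No set test was made on any list.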

How the data were processed

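The 4 peak lists, 1 per CUT&Tag sample, were read as the authors deposited them. A line holds a position, the coverage summed over the peak (total signal), its maximum (highest signal) and the stretch where that maximum lies, whose midpoint was taken as the summit. The submitters' processing notes name SEACR 1.3, a peak caller for low-background data, beside Bowtie2 2.4.2, fastp 0.23.2, SAMtools 1.9, deepTools 3.5.2 and bedtools 2.30.0, and both hg38 and GRCh38 as build. SEACR's settings, and whether IgG served as its control, are not stated in the labels or headers. The scale of the signal differs between libraries, so the deposited signal values were only ranked within a list. In each list 100% of highest values were whole multiples of a fixed amount, here called a step (tolerance 0.01 step or 0.01%). Sequencing depth is unknown.

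Groups and replicate numbers came from the titles. Only chromosomes 1 to 22 and X entered the analysis, and no peaks within a list overlapped. Overlap was 1 bp or more. Gene starts came from RefSeq promoter entries (GRCh38.p14) for 15453 genes, otherwise both annotated ends were used for 3882, and 639 genes with LOC-numbered symbols were left out, a choice made after the data were seen. All positions are 1-based GRCh38. A window can hold a neighbour's promoter, and neighbours can share a peak.

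Named genes were the 12 of highest mean percentile per antibody among those with strong peaks of that antibody only, members of fixed lists in that class (at most 15), 3 regions per antibody, and YTHDF1 and ARID1A. By the rule, promoters were to be shown for genes of the first set with both summits within 500 bp of a start, and none qualified. Members and lists were chosen with earlier results of these data known. Python 3.11.15, numpy 2.4.6, pandas 2.3.3, scipy 1.17.1 and matplotlib 3.10.9 were used, and the overlap code was tested on simulated intervals. Alternatives were equal numbers of peaks, equal covered length, summit windows, stricter overlap, other rankings, windows and thresholds, and leaving out each list. Regions and genes were counted by class and not tested one by one. Same-numbered replicates of the 2 antibodies did not deviate together (r = -0.00720 of the difference in percentile between replicates, over 12189 regions), and the labels tie no batch to a number.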

Additional observations from a re-analysis of the deposited data

Results flagged for a closer look

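Peaks outside chromosomes 1 to 22 and X were left out of every comparison. They made up 6.21% and 6.56% of the anti-YTHDF1 lists and 3.57% and 3.73% of the anti-ARID1A lists, a signal in parts of the files that the comparisons do not use. No control list was read, and the difference between the antibodies was not tested.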

How the results depend on the processing

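Median width, covered length and number of peaks kept their direction under every alternative that does not set them equal by construction, and leaving out 1 list moved the ratios of anti-ARID1A to anti-YTHDF1 to 1.37 to 1.63, 2.76 to 5.01 and 1.67 to 2.38. Pairing lists of the same replicate number (replicate block) gave ratios of 2.04 for the number of peaks, 3.97 for covered length and 1.5 for median width, each with an exact paired p of 0.5, the smallest it allows. The replicate numbers are names only, and the block changed no call. The ratio of median widths was 2.36 and 2.08 with lists cut by total and by highest signal. Cutting by total signal, the width ratio at shared regions was 3.06, and leaving out 1 list gave 2.09 to 2.98.

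Overlap, region and gene counts depended on the setting. Mean overlap with all peaks was 42.0% between anti-YTHDF1 lists, 71.0% between anti-ARID1A lists, 72.3% for anti-YTHDF1 peaks in anti-ARID1A lists and 27.0% the other way. With lists cut to equal numbers by total signal it was 80.3% between anti-ARID1A lists, 64.3% and 42.9% between antibodies; by highest signal 81.8%, 60.9% and 39.8%; with equal covered length 80.3%, 30.4% and 86.0%, and 47.2% between anti-YTHDF1 lists; and with 500 bp summit windows 24.0%, 46.2%, 30.6% and 15.7%, the first for anti-YTHDF1 lists. Asking for 50% of the shorter peak gave 66.6% of anti-YTHDF1 peaks in anti-ARID1A lists, median summit distances of 298 bp (anti-YTHDF1 lists), 167 bp (anti-ARID1A lists) and 385.5 bp (between), and 66.9% and 56.8% of summits within 500 bp for anti-YTHDF1 lists and between antibodies. Summit windows limit these distances by construction, to medians of 175, 81 and 154 bp, and cutting by total signal gave 129 bp between anti-ARID1A lists. Spearman's rank correlation of peaks by highest signal was 0.50 between anti-YTHDF1 lists and a mean of 0.44 between antibodies. By signal divided by width it was 0.36 and 0.34 in the same order. Between anti-ARID1A lists it was 0.84 when cut by highest signal.

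Regions of anti-ARID1A only were 9733 with lists cut by total signal, 12140 by highest signal and 127 with equal covered length, and those of anti-YTHDF1 only 1184, 1685 and 5384, and 3767 with summit windows. Leaving out 1 list gave 32923 to 62681 and 900 to 11048. The percentiles that define strong peaks were taken anew in each cut list. Genes with strong anti-ARID1A peaks only numbered 72 and 74 with lists cut by total and by highest signal, 10 with equal covered length, 76 with summit windows, 78 with 3 kb windows, 777 at the 75th percentile, 59 at the 95th, and 43 where the peaks themselves overlapped no anti-YTHDF1 peak, a choice added after seeing the data. They were 233 to 852 with 1 list left out: 852 without anti-YTHDF1 replicate 1, 304 without its replicate 2, 338 without anti-ARID1A replicate 1 and 233 without its replicate 2. Leaving out a list drops a condition, so this count can only rise. Genes with strong anti-YTHDF1 peaks only were 2 when cut by highest signal, 42 with equal covered length, 102 with summit windows, 0 when ranked by highest signal, with 3 kb windows or with peaks overlapping no anti-ARID1A peak, and 1 to 2 with 1 list left out. List members held by anti-ARID1A only were 38 of the 60 in number when cut by total signal and 66 to 133 with 1 list left out (133 without anti-YTHDF1 replicate 1), and by anti-YTHDF1 only 0 when cut, 2 with 3 kb windows and 1 to 5 with 1 list left out. The remaining 112 values kept their direction and side of the threshold where a test was made, and otherwise stayed within the spread between lists or within 1.5 times the count. Where no cause is named by the construction of a setting, the cause was not tested. Depth is unknown and limits what the absence of a peak in a list can mean.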
